A study of Mus musculus with 79 samples.

Results

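The 32 genes described here are a set of hypoxia response and glycolysis genes, taken by symbol out of the 3 count tables of a mouse study of nerve repair. All 32 were found among the 23361 genes of each table. They hold the oxygen sensing genes Hif1a, Epas1 and Egln3. They hold 8 genes of glucose entry and the first steps of glycolysis (Slc2a1, Hk1, Hk2, Gpi1, Pfkl, Pfkp, Pfkfb3, Pfkfb4) and 8 of lower glycolysis (Aldoa, Aldoc, Tpi1, Gapdh, Pgk1, Pgam1, Eno1, Pkm). Ldha, Pdk1 and Slc16a3 handle pyruvate and lactate. Bnip3, Bnip3l, Ddit4, Ankrd37, Ndrg1 and Mxi1 are mitophagy and stress targets, and P4ha1, P4ha2, Adm and Car9 act in matrix, vessels and pH control.

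The mice carried a reporter, S100β-eGFP, in which the S100β promoter drives a green fluorescent protein in Schwann cells, and both sexes were used. A freshly cut common peroneal nerve was joined to the tibial distal stump across a silicone conduit, either at once (immediate repair, after a sham incision at the earlier time) or 8 weeks after the tibial branch had been cut (delayed repair, with the branch sutured to muscle in between). Macrophages and Schwann cells were sorted from single bridges on day 5 and day 14 after repair, and the distal stump itself was taken on day 5 only. The 79 libraries came from 32 animals. The stump gave 7 immediate and 9 delayed libraries. The sorted macrophages gave 8 immediate and 9 delayed libraries at day 5, then 8 and 7 at day 14. The sorted Schwann cells gave 7 immediate and 9 delayed libraries at day 5, then 8 and 7 at day 14. In 31 animals both sorted libraries came from the same bridge, and all 16 stump animals also gave sorted libraries, so the 3 kinds of library are not independent sets of mice.

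When oxygen is short, HIF-1α (from Hif1a) and HIF-2α (from Epas1) escape degradation and switch on genes that bear a short hypoxia response element. Many of those targets are glycolytic enzymes and glucose or lactate carriers, so that cells can make ATP without the mitochondria. Inflammatory macrophages also raise glycolysis when oxygen is present, and macrophages in the avascular bridge of a cut nerve are known to sense hypoxia and to guide new vessels.

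Total counts per library ran from 3898778 to 9212709 in the stump, from 14928745 to 28499407 in the macrophages and from 11614940 to 30796823 in the sorted Schwann cells. Levels are given as CPM, each gene's share of its library's counts scaled to a common library total, after adjustment for library composition. The macrophage gate was checked against 8 measured macrophage markers, whose summed level was 16913 to 36621 CPM in the macrophage libraries. The 8 Schwann cell markers summed to 144 to 2659 CPM in the sorted Schwann cells against 5.46 to 33.9 CPM in macrophages. Dendritic cell markers summed to 10755 to 35746 CPM in those same sorted Schwann cells. Most of that was Cd74, an antigen presentation gene, but the dendritic cell genes Flt3 and Zbtb46 were present too, with group medians of 258 to 596 and 159 to 276 CPM. The gate (GFP+ and negative for F4/80, CD14, CD16/32 and CD11b) did not use these genes. By the study's methods, a dump channel also removed cells stained for neutrophil, eosinophil, lymphocyte, endothelial and red cell markers, and for Thy1 as a fibroblast marker. In every sorted Schwann cell library the dendritic sum exceeded the Schwann cell sum. The sorted Schwann cells are therefore called the Schwann fraction from here on, and comparisons of cell types below compare the sorted fractions. Replicates 3 and 5 of the immediate Schwann fraction at day 14 stood apart, with neutrophil markers at 13108 and 4495 CPM, and 1 delayed stump library, replicate 5, held skeletal muscle markers at 3065 CPM.

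The highest members per kilobase of exon were glycolytic enzymes in every kind of library. Pkm, the last enzyme of glycolysis, led in macrophages at day 5 with a median of 1207 CPM per kb after immediate and 1254 after delayed repair. Aldoa and Ldha followed. Aldoa led in all 4 Schwann fraction groups, with medians from 440.3 to 624 CPM per kb. Pkm led again in the stump at 261 and 230.0 CPM per kb. These neighbours in the order overlapped in their ranges. At the other end, Epas1 was the lowest member in macrophages, at 0.43 to 0.53 CPM per kb, while in the delayed stump its median was 36.7 CPM per kb, rank 12 of the 32. Car9, a carbonic anhydrase that serves as a hypoxia marker in tumours, stayed at or under 9.54 CPM in every library. It had no count in 5 of 8 immediate Schwann libraries at day 14.

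Promoter sequence was drawn from RefSeq (build GRCm38.p6), from 250 bases before to 50 bases after each annotated start. A promoter was available for 29 of the 32 members. The letters ACGTG and GCGTG, the core of the hypoxia response element, were searched on both strands, so that they also read as CACGT and CACGC, and CACGTG counts on each strand. At least 1 match lay in a promoter of 27 of the 29 members (93.1%). The same was true of 46.7% of all genes in the promoter table and of 70.0% of the genes tested in macrophages, so the share among expressed genes is the nearer comparison. Gpi1 and Tpi1 had no match in this window. The stretches printed here show 80 bases for Ldha, whose promoter held the most matches (7, of which 3 lie in the stretch), for Bnip3, Pgk1 and Pdk1, which were lower at day 14 in macrophages of both repair groups, and for Pfkfb3, which differed in the stump and in the Schwann fraction. Capitals mark the matches, and each is written 5′ to 3′ on the strand of its gene.
Ldha, chr7:46845724-46845803, plus strand: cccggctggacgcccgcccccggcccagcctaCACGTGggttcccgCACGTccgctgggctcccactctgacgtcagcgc
Bnip3, chr7:138909535-138909614, minus strand: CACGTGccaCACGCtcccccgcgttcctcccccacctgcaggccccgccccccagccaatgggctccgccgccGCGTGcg
Pgk1, chrX:106186950-106187029, plus strand: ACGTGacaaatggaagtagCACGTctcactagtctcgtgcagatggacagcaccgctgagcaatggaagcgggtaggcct
Pdk1, chr2:71873144-71873223, plus strand: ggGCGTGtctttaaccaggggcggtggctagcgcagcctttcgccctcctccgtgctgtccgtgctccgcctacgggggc
Pfkfb3, chr2:11502133-11502212, minus strand: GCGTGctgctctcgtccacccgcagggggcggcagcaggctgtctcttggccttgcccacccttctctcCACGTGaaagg

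The first question was whether 8 weeks of denervation before repair changed these genes in the distal stump at day 5. Of 29 members tested there, 2 were higher and 2 lower after delayed repair, against 26.3% of all genes called in either direction (12.8% higher and 13.5% lower). The members' median log2 fold change was -0.02, and that of all genes tested was 0.02. Of the 4 that passed, Epas1 is an oxygen sensing gene and Pfkfb3, Pfkfb4 and Pfkp act at the phosphofructokinase step. None of the 7 lower glycolysis genes tested was called. In GENCODE vM21 (GRCm38) these protein-coding genes lie at chr2:11471433-11554077 (Pfkfb3, minus strand), chr17:86753700-86833410 (Epas1, plus strand), chr9:108991778-109032228 (Pfkfb4, plus strand) and chr13:6579768-6648777 (Pfkp, minus strand).

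Pfkfb3 makes the sugar phosphate that activates phosphofructokinase and so speeds glycolysis. Its level was 43.3 to 71.1 CPM (median 46.7) after immediate and 64.3 to 101 CPM (median 81.6) after delayed repair. All 9 delayed stumps lay above the immediate mean, and the 2 ranges overlapped only between 64.3 and 71.1 CPM. The log2 fold change was 0.67 ± 0.12 (SE; edgeR quasi-likelihood test, Benjamini-Hochberg adjusted p = 0.000664). Pfkfb4 encodes the sister enzyme and went the other way. It measured 68.8 to 98.1 CPM (median 81.6) after immediate and 46.5 to 75.8 CPM (median 65.9) after delayed repair. No delayed stump reached the immediate mean, although the ranges overlapped. Its log2 fold change was -0.35 ± 0.10 (edgeR adjusted p = 0.0188). Pfkp, the platelet isoform of phosphofructokinase itself, ranged from 100.0 to 131 CPM (median 112) and from 77.3 to 116 CPM (median 83.4). It was below the immediate mean in 8 of 9 delayed stumps, and its log2 fold change was -0.30 ± 0.10 (edgeR adjusted p = 0.0329). Its call was lost when any of 8 single libraries was left out, with an adjusted p of up to 0.0615. With the replicate number as a block neither Pfkfb4 nor Pfkp was called, although these numbers did not pair the stump animals by correlation.

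Epas1, the HIF-2α gene, is typical of vessel cells. Its level was 81.5 to 177 CPM (median 99.0) after immediate and 121 to 300.4 CPM (median 203) after delayed repair, and 8 of 9 delayed stumps exceeded the immediate mean. The log2 fold change was 0.82 ± 0.22 (edgeR adjusted p = 0.0123). Endothelial markers moved with it. Their sum was 748 to 1047 CPM after immediate and 1213 to 1743 CPM after delayed repair, with no overlap. Markers of mural cells, which wrap the vessels, were 601 to 803 CPM (median 737) after immediate and 789 to 1303 CPM (median 974) after delayed repair. In bulk tissue a change in the number of cells and in RNA per cell cannot be told apart, and the part of the endothelial and mural shifts in the Epas1 value was not tested. Schwann cell markers were lower after delayed repair at the same time (107 to 618 CPM against 1023 to 2460 CPM). Macrophage markers were 3115 to 5154 CPM (median 4213) after delayed and 1311 to 5061 CPM (median 2392) after immediate repair, so the ranges overlapped while every delayed stump lay above the immediate median. The part of these shifts in the stump values was not tested.

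The remaining stump members were not called. Hif1a had a log2 fold change of 0.33 ± 0.17 (edgeR adjusted p = 0.169), from 242 to 516 CPM after immediate and 333 to 699 CPM after delayed repair. Slc2a1, the glucose transporter GLUT1, stood at 86.9 to 188 and 69.0 to 174 CPM (log2 fold change -0.37 ± 0.21, adjusted p = 0.196). Its difference was called in 1 of 16 fits with 1 library left out. Ldha, which turns pyruvate into lactate, gave 0.22 ± 0.13 (adjusted p = 0.231). Adm, the vessel peptide adrenomedullin, gave -0.17 ± 0.24 (adjusted p = 0.654). Car9, Aldoc and Ankrd37 were too low to be tested.

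**Figure D1:**
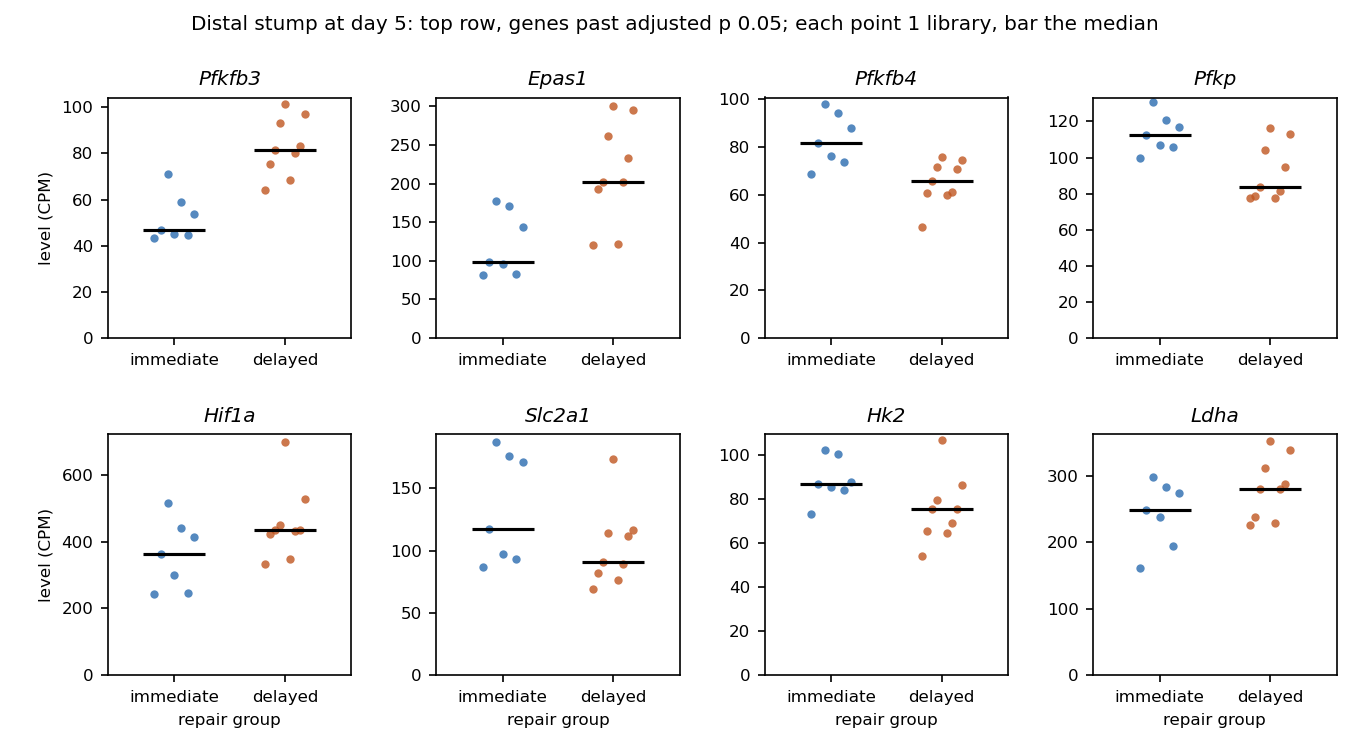
Levels in CPM of 8 genes in the distal stump at day 5, each point 1 library and the bar the median, blue for immediate (7 libraries) and orange for delayed repair (9 libraries). The top row holds the 4 members past the test, with Pfkfb3 and Epas1 higher and Pfkfb4 and Pfkp lower after delayed repair, and the bottom row holds 4 that were not called.

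Other genes of the same pathways were read from lists of related genes. Of 41 tested hypoxia genes outside the 32, 8 were higher and 1 lower after delayed repair, where 12.8% of all genes were higher and 13.5% lower. They were led by Arnt2, a partner of HIF found mainly in neural cells, at -4.05 ± 0.26 (edgeR adjusted p = 8.53e-08), by the vessel growth factor gene Pdgfb at 0.75 ± 0.15 (adjusted p = 0.00185) and by Narf at 0.48 ± 0.10 (adjusted p = 0.00239). Among 14 other glycolysis genes, Ldhb, the lactate dehydrogenase subunit of oxidative tissue, fell by 2.14 on the log2 scale (adjusted p = 2.78e-05), while Hk3 rose by 0.64 (adjusted p = 0.0257; lost in 5 of 16 fits with 1 library left out) and the muscle enolase Eno3 by 2.13 (adjusted p = 0.0288). Without delayed replicate 5, the library high in skeletal muscle markers, the Eno3 value was 0.79 (adjusted p = 0.0235), and its call was lost without immediate replicate 2, 6 or 7 (adjusted p up to 0.0612). Of 25 TCA cycle genes 3 were lower, Pdp1, Sdhc and Cs. Of 7 pentose phosphate genes 1 was lower, Taldo1 at -0.49 ± 0.17 (adjusted p = 0.0444). With 1 library left out the Cs call was lost in 9 of 16 fits (adjusted p up to 0.0956) and the Taldo1 call in 10 of 16 (adjusted p up to 0.117).

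The same contrast in sorted macrophages gave no member past the test at either day. At day 5, 0 of 30 members were called by edgeR's quasi-likelihood test and 0.0357% of all genes (0.0119% higher and 0.0238% lower), and 3 members had an unadjusted p under 0.05 (435 of 8409 genes did). Ddit4, a stress gene that restrains mTORC1, ranged from 11.9 to 28.4 CPM after immediate and from 11.2 to 21.2 CPM after delayed repair (log2 fold change -0.68 ± 0.18, adjusted p = 0.405). Hk2, the inducible hexokinase, ranged from 114 to 235 and from 76.7 to 174 CPM (-0.54 ± 0.16, adjusted p = 0.492). Hk1 gave -0.24 ± 0.12 (adjusted p = 0.931). Hif1a (-0.22 ± 0.21), Slc2a1 (-0.19 ± 0.12), Ldha (0.04 ± 0.13) and Adm (-0.39 ± 0.30) had adjusted p-values of 0.975 to 0.992 in the same test. DESeq2 called none of the 30 members and 17 genes in all.

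At day 14 the macrophage contrast called 0 of 27 members and 0% of all genes, and no member had an unadjusted p under 0.05 (190 of 8589 genes did). DESeq2 called 0 members too. Hif1a was at -0.11 ± 0.23, Slc2a1 at 0.00 ± 0.14 and Ldha at 0.08 ± 0.11, each with an edgeR adjusted p of 1. For the 7 lower glycolysis genes tested the SE lay between 0.12 and 0.18 on the log2 scale.

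In the Schwann fraction the delayed and immediate groups again gave no call. At day 5, 0 of 29 members and 0% of genes passed the edgeR test, with 3 members at an unadjusted p under 0.05 (505 of 9604 genes). Slc16a3, the lactate exporter MCT4, measured 19.9 to 117 CPM after immediate and 58.3 to 222 CPM after delayed repair (0.96 ± 0.34, adjusted p = 0.818). Ddit4 gave -0.55 ± 0.22 and Pfkl 0.51 ± 0.24. The members' median was 0.22 against -0.01 over all genes. All 8 genes of lower glycolysis had positive values, from 0.13 to 0.47, and none of them passed the test. Macrophage markers in these libraries were 291 to 3854 CPM (median 795) after immediate and 361 to 9731 CPM (median 2856) after delayed repair. Schwann cell markers were 207 to 1177 CPM (median 468) after immediate and 144 to 441 CPM (median 244) after delayed repair. Fibroblast markers were 309 to 8367 CPM (median 1687) and 19.1 to 3586 CPM (median 525) in the same order. The part of these markers in the members' values was not tested.

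At day 14, 0 of 30 members and 0% of genes in the Schwann fraction were called by edgeR. Only P4ha2, a collagen prolyl hydroxylase, had an unadjusted p under 0.05, with 14.9 to 60.3 CPM after immediate and 8.06 to 44.7 CPM after delayed repair (-0.84 ± 0.36, adjusted p = 0.998). Over all genes 373 of 10226 did. DESeq2 called 0 members at either day. At day 5 Hif1a was 0.21 ± 0.21, Slc2a1 0.53 ± 0.27, Ldha 0.32 ± 0.24 and Adm -0.48 ± 0.33 (edgeR adjusted p = 0.965, 0.913, 0.928 and 0.921). At day 14 they were 0.16 ± 0.16, -0.05 ± 0.33, -0.14 ± 0.18 and -0.61 ± 0.51, each with an adjusted p of 0.998. The interaction of repair and day, which tests whether the repair effect changed from day 5 to day 14, called 0 of 31 members in macrophages (0.0223% of genes) and 0 of 30 in the Schwann fraction (0% of genes). In that test 1 macrophage member (Hk2, 0.56 ± 0.24) and 3 Schwann fraction members (Pgk1, Pkm and Aldoa, -0.71 to -0.45) had an unadjusted p under 0.05, and DESeq2 called none of the members in either. Over all genes 323 of 8949 in macrophages and 524 of 10923 in the Schwann fraction had an unadjusted p under 0.05.

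**Figure D2:**
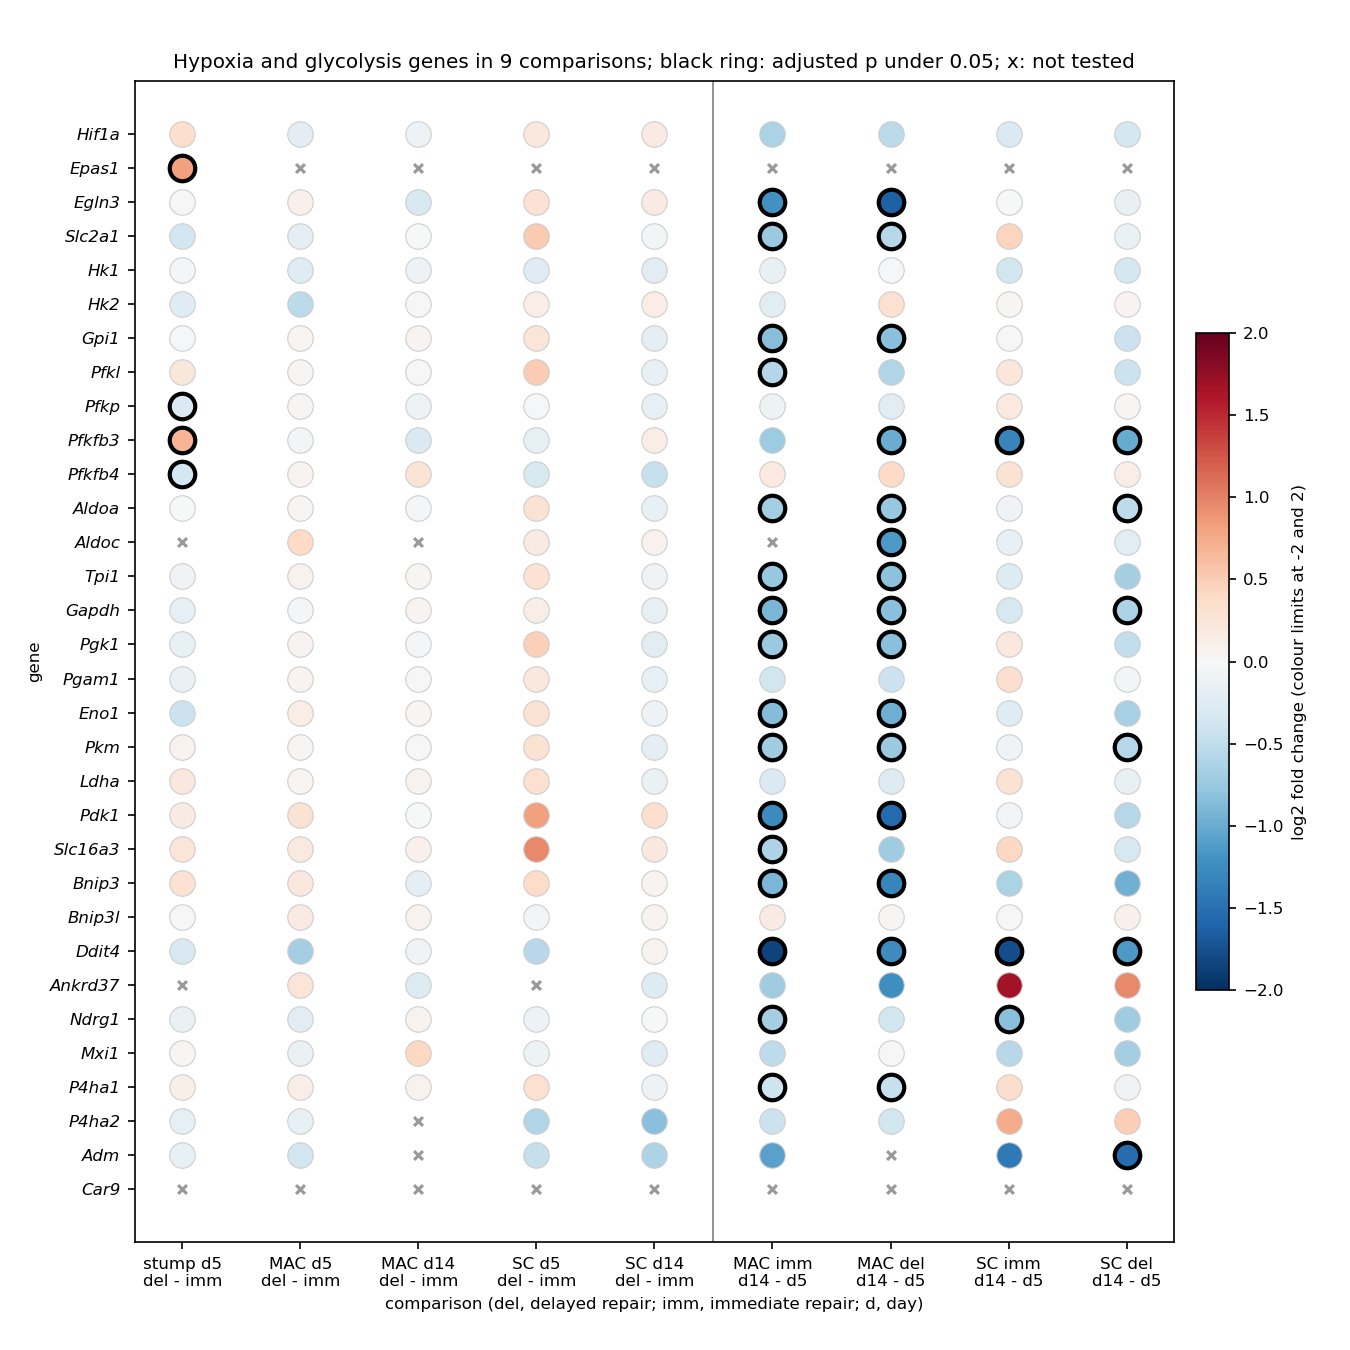
Log2 fold changes of the 32 genes (rows) in 9 comparisons (columns), coloured from -2 (blue) to 2 (red), with a black ring where the edgeR adjusted p was under 0.05 and a cross where the gene was not tested. MAC stands for macrophages and SC for the Schwann fraction. The ringed genes are 4 in the stump, none in the 4 sorted repair comparisons, and 16, 15, 3 and 6 in the 4 comparisons of day 14 with day 5.

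The second question was how the members changed from day 5 to day 14. In macrophages after immediate repair, 16 of 29 members were lower at day 14 than at day 5 and 0 were higher. Over all genes 11.3% were called (6.01% lower and 5.33% higher). The members' median log2 change was -0.69 against 0.01 for all genes. After delayed repair, in other animals, 15 of 29 members were lower and 0 higher, where 6.41% of all genes were called (3.13% lower and 3.28% higher), and the median was -0.71 against 0.00 for all genes. The 2 comparisons share no animal. They had 13 lower members in common, Aldoa, Bnip3, Ddit4, Egln3, Eno1, Gapdh, Gpi1, P4ha1, Pdk1, Pgk1, Pkm, Slc2a1 and Tpi1, which is 81.2% of the 16 and 86.7% of the 15. Aldoc is among the 15 but was under the minimum level for testing after immediate repair, so it could not be shared. Over all genes 174 were lower in both, 34.2% and 66.4% of the genes lower in each among those tested in both. The share of the 15 was not limited in that way.

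Summed over 8 enzymes (Aldoa, Tpi1, Gapdh, Pgk1, Pgam1, Eno1, Pkm and Ldha), the macrophage level went from 8206 to 11776 CPM (median 11035) at day 5 to 5779 to 7293 CPM (median 6320) at day 14 after immediate repair. After delayed repair it went from 8460 to 12708 CPM (median 10901) to 4300 to 8441 CPM (median 6601). On these composition-adjusted levels no day 14 library of either group reached the lowest day 5 library of its group. After delayed repair the margin was narrow, 8441 against 8460 CPM. Scaled by library total alone, the days overlapped in both groups. In the Schwann fraction the ranges of the days overlapped in both groups, with medians of 4209 and 3989 CPM after immediate and 4908 and 3631 CPM after delayed repair. The stump sums were lower still, at 1329 to 2726 CPM, although those libraries were made by another method.

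**Figure D3:**
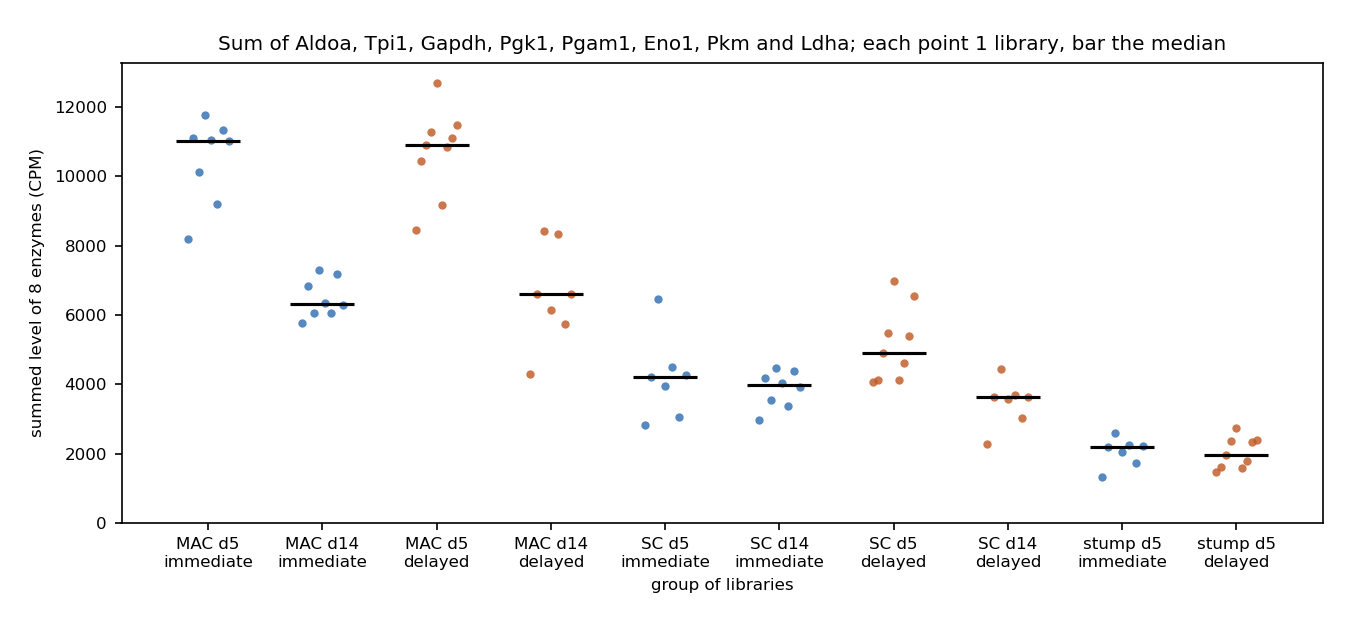
Summed level in CPM of 8 glycolytic enzymes in each library (points) by group, with the median as a bar, blue for immediate and orange for delayed repair. In macrophages, after adjustment for library composition, the day 14 libraries sit between 4300 and 8441 CPM, below the day 5 libraries of their own repair group.

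Glucose entry genes fell in part. Slc2a1 in macrophages fell after immediate repair from 381 to 585 CPM (median 489.8) to 189 to 358 CPM (median 270.2), with no overlap. The log2 change was -0.74 ± 0.13 (edgeR adjusted p = 0.00087). After delayed repair it fell from 292 to 522 CPM (median 433) to 208 to 356 CPM (median 259), by -0.56 ± 0.14 (adjusted p = 0.0162). Gpi1, which isomerises glucose 6-phosphate, fell in both groups too (-0.86 ± 0.17 and -0.84 ± 0.17), as Pfkl did after immediate and Pfkfb3 after delayed repair. The hexokinases Hk1 and Hk2, Pfkp and Pfkfb4 were not called in either group, with values from -0.23 to 0.40, so 3 of these 8 genes passed the test in each group.

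Lower glycolysis held the largest share of falls, with 6 of 7 tested genes lower after immediate and 7 of 8 after delayed repair. The gene tested only after delayed repair was Aldoc. It passed the filter through its day 5 libraries, at 6.49 to 13.7 CPM against 2.04 to 8.56 CPM at day 14. Aldoa, which splits the 6-carbon sugar, went from 1392 to 2071 CPM (median 1790.3) to 936 to 1206 CPM (median 1059) after immediate repair, and from 1428 to 2235 CPM (median 1739.9) to 697 to 1367 CPM (median 981) after delayed repair. The days did not overlap in either group (-0.69 ± 0.09, edgeR adjusted p = 0.000101, and -0.76 ± 0.13, adjusted p = 0.00136). Gapdh, the dehydrogenase often used as a reference gene, went from medians of 901 and 855 CPM to 436 and 468 CPM in the immediate and delayed groups. It changed by -0.92 ± 0.13 (663 to 1037 CPM against 377 to 669.7 CPM, adjusted p = 0.000124) and by -0.83 ± 0.14 (699 to 1032 CPM against 287 to 681 CPM, adjusted p = 0.00132), and only the delayed days were free of overlap. Pgk1, the first ATP-making step, changed by -0.74 ± 0.12 (233 to 471 CPM against 193 to 286 CPM, adjusted p = 0.000747) and by -0.83 ± 0.15 (338 to 511 CPM against 132 to 338 CPM, adjusted p = 0.00259).

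Eno1 and Pkm complete the path. Eno1 fell from 1108 to 1836 CPM (median 1457) to 527 to 999 CPM (median 749) after immediate repair, without overlap, and from 1146 to 1922 CPM (median 1627) to 557 to 1180.1 CPM (median 721) after delayed repair. Its log2 changes were -0.86 ± 0.13 (edgeR adjusted p = 0.000287) and -0.98 ± 0.16 (adjusted p = 0.00126). Eno1 shares reads with a near-identical copy, Eno1b, which held a median of 13.4% of their sum in macrophages. With both summed, the changes were -0.85 (adjusted p = 0.000212) and -1.03 (adjusted p = 0.00207). Pkm fell from 2681 to 3997 CPM (median 3136) to 1447 to 2305 CPM (median 2062) after immediate repair, without overlap (-0.72 ± 0.11, adjusted p = 0.000262). After delayed repair its change was -0.75 ± 0.16 (adjusted p = 0.00756). Tpi1 was lower in both groups. Pgam1 was not called in either (-0.38 ± 0.13, adjusted p = 0.0728, and -0.43 ± 0.16, adjusted p = 0.108), nor was Ldha (-0.29 ± 0.10, adjusted p = 0.0778, and -0.25 ± 0.13, adjusted p = 0.278), whose ranges overlapped at 1259 to 1926 against 1115 to 1537 CPM and at 1336 to 2275 against 1112 to 1768 CPM. After immediate repair Ldha was called in 1 of 16 fits with 1 library left out.

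Several targets outside the glycolytic path fell by more than 1 on the log2 scale. Pdk1, the kinase that keeps pyruvate out of the mitochondria, went from 42.9 to 117 CPM (median 81.4) to 19.1 to 32.2 CPM (median 27.5) after delayed repair. Those days did not overlap, and the change was -1.56 ± 0.21 (edgeR adjusted p = 0.000211). After immediate repair it was -1.27 ± 0.31 (adjusted p = 0.0119), with medians of 60.5 and 20.4 CPM. Bnip3, a mitophagy receptor, went from 234 to 515 CPM (median 349) to 78.5 to 223 CPM (median 148) after delayed repair, also without overlap (-1.33 ± 0.23, adjusted p = 0.00183), and by -0.91 ± 0.28 (adjusted p = 0.042) after immediate repair. Its relative Bnip3l did not pass the test in either group, at 0.16 ± 0.14 and 0.04 ± 0.13. Ddit4 changed by -1.85 ± 0.40 (adjusted p = 0.00535) and -1.26 ± 0.24 (adjusted p = 0.00303). Egln3, a prolyl hydroxylase that marks HIF for degradation and is itself a HIF target, changed by -1.21 ± 0.38 (adjusted p = 0.0424) and -1.63 ± 0.43 (adjusted p = 0.0282).

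Hif1a itself was not called in macrophages. Its level was 782 to 1864 CPM at day 5 and 381 to 1446 CPM at day 14 after immediate repair, then 444 to 1644 and 473 to 1236 CPM after delayed repair, and the days overlapped in both. At day 5 the sexes did not overlap in either repair group. Male libraries measured 1525 to 1864 CPM and female ones 782 to 1157 CPM after immediate repair. After delayed repair they measured 1315 to 1644 and 444 to 1156 CPM. At day 14 the sexes overlapped in both repair groups. Sex goes with the replicate number, and a sex effect was not tested. The log2 changes of Hif1a between the days were -0.64 ± 0.23 (edgeR adjusted p = 0.074) and -0.54 ± 0.22 (adjusted p = 0.152). With 1 library left out it was called lower in 2 of 16 fits after immediate and 1 of 16 after delayed repair. HIF-1α is controlled mainly through its protein, which was not measured. Adm changed by -1.09 ± 0.42 (adjusted p = 0.103) after immediate repair at 3.24 to 15.1 CPM against 0.905 to 11.2 CPM, and was called in 1 of 16 fits with 1 library left out. Adm was under the minimum level for testing after delayed repair, and Epas1 and Car9 were under it in both groups.

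The neighbouring pathways in macrophages are read against the same shares of all genes, 11.3% called after immediate and 6.41% after delayed repair. Of 25 TCA cycle genes 1 was lower after immediate repair, Mdh2 at -0.34 ± 0.08 (edgeR adjusted p = 0.00977), and 0 after delayed repair, where 2 had an unadjusted p under 0.05. No pentose phosphate gene of 6 was called in either group by edgeR, with 1 and 0 at an unadjusted p under 0.05. Of 31 other hypoxia genes 1 was higher and 4 lower after immediate repair, led by the cytokine gene Mif (-1.07 ± 0.15, adjusted p = 0.000177), the vessel growth factor Vegfa (-0.72 ± 0.14, adjusted p = 0.00232) and Bhlhe41 (1.20 ± 0.28, adjusted p = 0.00914). After delayed repair 2 of 32 were higher and 4 lower, led by the oxygen sensor Egln1 (1.84 ± 0.28, adjusted p = 0.000752), Mif (-0.94 ± 0.16, adjusted p = 0.00141) and Cited2 (-0.90 ± 0.18, adjusted p = 0.00447). Of 8 other glycolysis genes none was called after immediate repair, with 3 at an unadjusted p under 0.05, while Pgm2 (-1.03), Ldhb (1.05) and Eno2 (0.69) passed after delayed repair. The Eno2 call was lost in 9 of 16 fits with 1 library left out (adjusted p up to 0.104).

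The macrophage libraries differed between the days in other ways. Cd74 had medians of 2505 and 2364 CPM at day 5 and 8770 and 7578 CPM at day 14 in the immediate and delayed groups, and the 8 dendritic markers summed to 1169 to 4178 CPM at day 5 and 5497 to 14830 CPM at day 14. The dendritic genes Flt3 (medians 0 to 0.229 CPM) and Zbtb46 (medians 1.26 to 1.79 CPM) stayed near 0 in macrophages. Macrophage markers were 16913 to 36621 CPM at day 5 and 26022 to 36609 CPM at day 14. The part of these shifts in the members' changes was not tested. With scaling by library size alone, all genes moved up by a median of 0.16 in the immediate group and 11 members were called lower in place of 16.

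**Figure D4:**
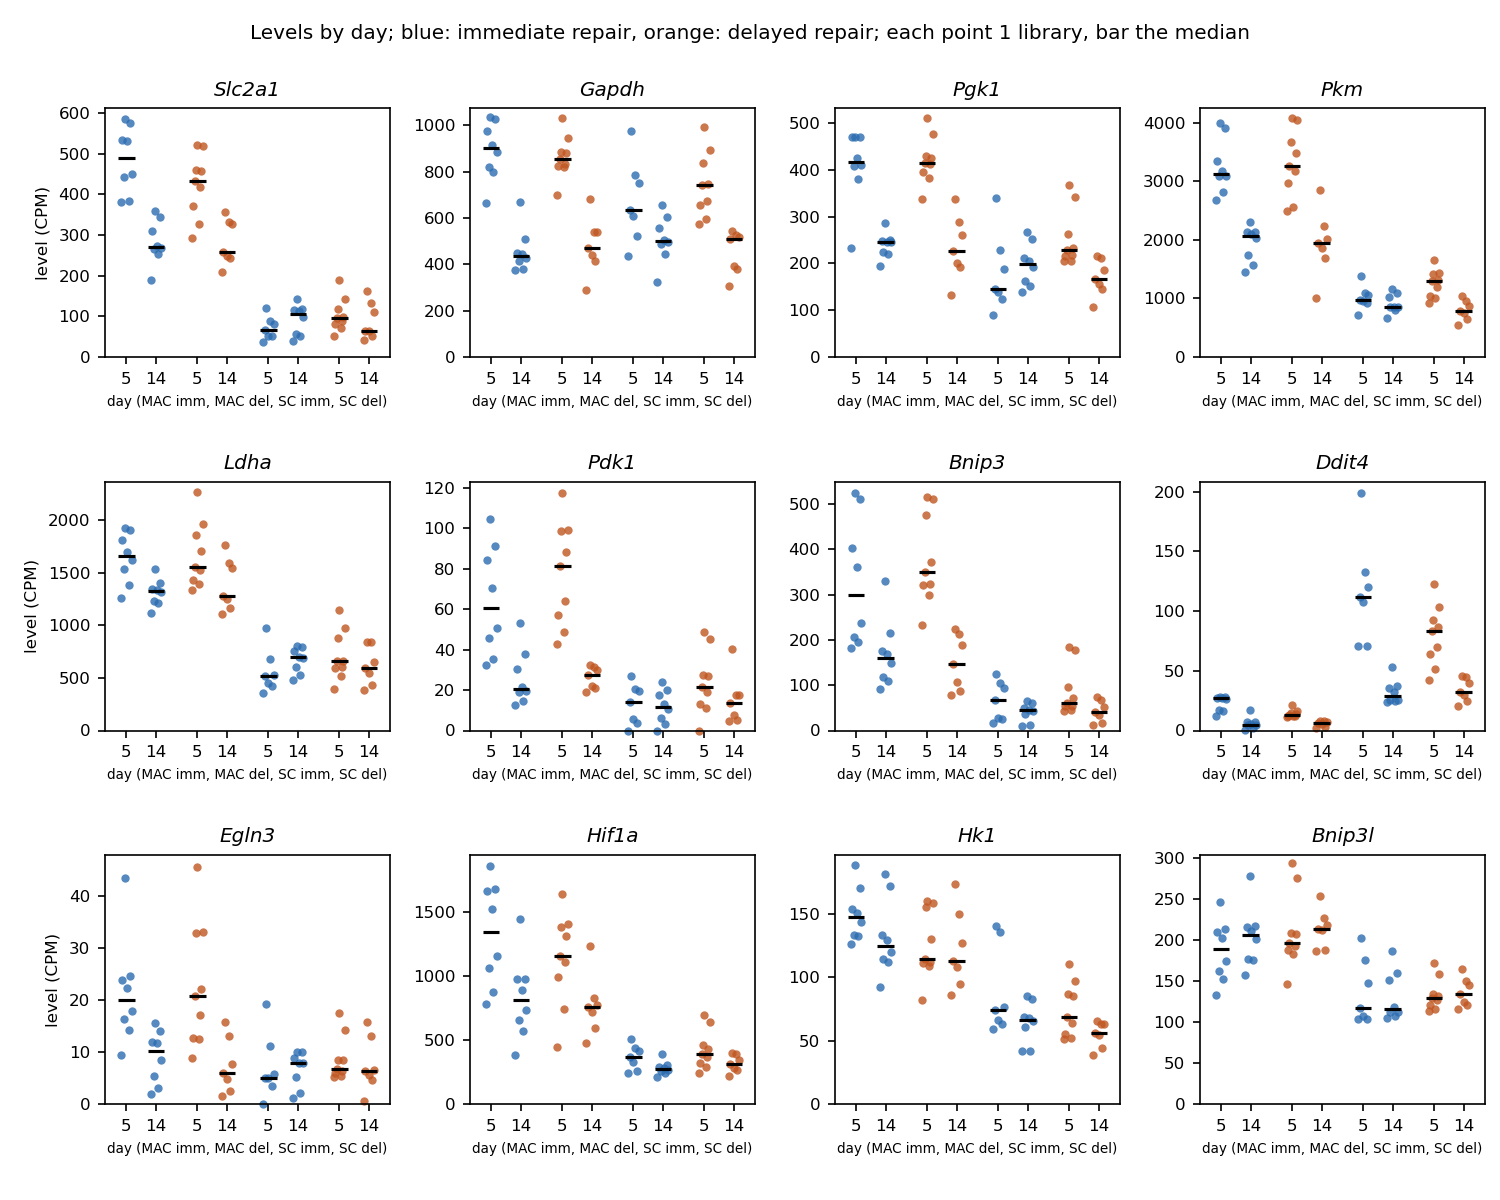
Levels in CPM of 12 genes by day (5, 14) in macrophages (MAC) and the Schwann fraction (SC), blue for immediate and orange for delayed repair, each point 1 library and the bar the median. Slc2a1, Gapdh, Pgk1, Pkm, Pdk1, Bnip3, Ddit4 and Egln3 were lower at day 14 in macrophages of both repair groups, while Ldha, Hif1a, Hk1 and Bnip3l were not called there.

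The same contrast of days was then made in the Schwann fraction. After immediate repair 3 of 30 were lower at day 14 and 0 higher, with 3.81% of all genes called (3.1% lower and 0.719% higher). After delayed repair 6 of 30 were lower and 0 higher, with 8.09% of genes called (4.75% lower and 3.34% higher). DESeq2 called 11 members lower in the delayed group, and edgeR with library size scaling alone called 3. The medians were -0.04 and -0.39, against 0.04 and 0.03 for all genes. Ddit4 and Pfkfb3 fell in both.

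Ddit4 went from 71.0 to 199 CPM (median 112) to 24.1 to 53.1 CPM (median 28.9) after immediate repair, with no overlap (-1.78 ± 0.24, edgeR adjusted p = 0.00239). After delayed repair it went from 42.5 to 123 CPM (median 83.7) to 20.7 to 45.8 CPM (median 32.4), by -1.15 ± 0.22 (adjusted p = 0.0105). Pfkfb3 went from 465 to 1139.8 CPM (median 995) to 257 to 539 CPM (median 327) after immediate repair (-1.32 ± 0.21, adjusted p = 0.00402), and from 554 to 1199.6 CPM (median 753) to 235 to 551 CPM (median 362) after delayed repair (-1.004 ± 0.202, adjusted p = 0.0112), where the days did not overlap. Ndrg1, a stress gene that is also abundant in myelinating Schwann cells, fell after immediate repair from 443 to 1356 CPM (median 877) to 327 to 643 CPM (median 461). Its change was -0.83 ± 0.22 (adjusted p = 0.0445), a call that was lost in 11 of 15 fits with 1 library left out (adjusted p up to 0.0888).

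Adm fell in the delayed Schwann fraction from 24.1 to 99.7 CPM (median 52.0) to 4.11 to 30.0 CPM (median 14.4), by -1.55 ± 0.39 (edgeR adjusted p = 0.0265). After immediate repair it measured 20.8 to 135 CPM and 4.09 to 59.9 CPM (-1.44 ± 0.48, adjusted p = 0.108). Gapdh, Pkm and Aldoa passed in the delayed group and not in the immediate group, and the test of that difference (the interaction of repair and day) called none of them. Gapdh went from 574 to 992 CPM (median 743) to 307 to 545 CPM (median 510.3), without overlap (-0.64 ± 0.15, adjusted p = 0.0178). Pkm went from 924 to 1659 CPM (median 1292) to 549 to 1036 CPM (median 780.5), by -0.58 ± 0.15 (adjusted p = 0.0274). Aldoa went from 736 to 1433 CPM (median 1138) to 521 to 834 CPM (median 803), by -0.53 ± 0.15 (adjusted p = 0.0388), a call lost in 10 of 16 fits with 1 library left out. Without day 14 replicate 1, 2 or 6 only 3 members were called in the delayed group, and in those 3 of 16 fits the calls of Adm (adjusted p up to 0.0605) and Pkm (up to 0.0640) were lost as well.

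Hif1a, Slc2a1 and Ldha were not called in the Schwann fraction. Hif1a changed by -0.31 ± 0.18 and -0.35 ± 0.21 (edgeR adjusted p = 0.382 and 0.291), Slc2a1 by 0.44 ± 0.30 and -0.13 ± 0.29 (0.473 and 0.813) and Ldha by 0.31 ± 0.20 and -0.15 ± 0.22 (0.458 and 0.705) after immediate and delayed repair. Of the companion lists, 1 of 33 other hypoxia genes was higher and 1 lower after immediate repair, Higd1a and Bhlhe40, and the Higd1a call was lost in 12 of 15 fits with 1 library left out (adjusted p up to 0.126). After delayed repair 1 was higher (Egln1) and 2 were lower (Bhlhe40 and Plin2), and Pdk3 was the single other glycolysis gene, lower by -0.90 ± 0.22 (adjusted p = 0.0212). Taldo1 of the pentose phosphate pathway was higher in both groups (0.68 ± 0.16, adjusted p = 0.0291, lost in 6 of 15 fits with 1 library left out, and 0.54 ± 0.11, adjusted p = 0.0111). G6pdx, the first enzyme of that pathway, was higher after immediate repair (0.97 ± 0.25, adjusted p = 0.0357, lost in 9 of 15 fits), and Pdp1, an activator of pyruvate dehydrogenase, was the TCA cycle gene called after delayed repair (1.03 ± 0.31, adjusted p = 0.0473, lost in 12 of 16 fits). Fibroblast markers in these libraries rose between the days from medians of 1687 to 5635 CPM and of 525 to 3896 CPM in the immediate and delayed groups. Schwann cell markers in the delayed group went from 144 to 441 CPM (median 244) to 475 to 2659 CPM (median 1433), without overlap, and in the immediate group from a median of 468 to 548 CPM. Macrophage markers went from a median of 2856 to 1378 CPM in the delayed group and from 795 to 1475 CPM in the immediate group. The part of these shifts in the members' values, the falls of Gapdh, Pkm and Aldoa included, was not tested. Leaving out the 2 libraries high in neutrophil markers left 3 members lower in the immediate group.

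The difference between cell types in the change over time was then tested by itself, in a fit added after the day comparisons had been seen. In it 5 of 31 members had a more positive change in the Schwann fraction than in macrophages and 0 a more negative one, where 15.8% of all genes were called (4.95% more positive and 10.8% more negative). DESeq2 called 9 members more positive, as did edgeR with library size scaling alone. The 5 of the main fit were P4ha1 (0.52 ± 0.15, edgeR adjusted p = 0.0109), Ankrd37 (2.23 ± 0.73, adjusted p = 0.0264), Pgk1 (0.56 ± 0.19, adjusted p = 0.0308), Slc2a1 (0.72 ± 0.24, adjusted p = 0.0348) and Pgam1 (0.50 ± 0.18, adjusted p = 0.0442). For Pkm, Aldoa, Eno1 and Gapdh the change in macrophages was not shown to differ from that in the Schwann fraction, with differences of 0.34 to 0.42 and adjusted p-values of 0.0752 to 0.129. With the animal as a block 7 members were called and Slc2a1 was not (adjusted p = 0.0785). Without the 2 libraries high in neutrophil markers 3 members were called, and Pgk1 and Pgam1 were not.

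Comparing the sorted fractions within a day, macrophages held more of most members than the Schwann fraction. At day 5, 22 of 30 members were lower and 7 higher in the Schwann fraction, where 65.3% of all genes were called (29.7% lower and 35.6% higher). At day 14, 19 of 30 were lower and 5 higher, where 64.7% were called (27.6% lower and 37.1% higher). The members' medians were -0.99 and -0.56, against 0.05 and 0.11 over all genes. Lower glycolysis was lower in the Schwann fraction for 7 of 8 genes at day 5 and 6 of 8 at day 14, and pyruvate and lactate handling for 3 of 3 at both days.

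Slc2a1 had the largest difference of the 6 lower members with the smallest p at each day. It measured 292 to 585 CPM in macrophages and 36.6 to 188 CPM in the Schwann fraction at day 5, without overlap (-2.35 ± 0.17, edgeR adjusted p = 6.68e-14), and 189 to 358 against 39.6 to 162 CPM at day 14 (-1.61 ± 0.18, adjusted p = 5.11e-09). Pkm measured 2496 to 4079 against 711 to 1659 CPM at day 5 (-1.51 ± 0.10, adjusted p = 4.04e-15) and 1014 to 2859 against 549 to 1160.0 CPM at day 14 (-1.15 ± 0.12, adjusted p = 3.17e-10). Ldha was 1259 to 2275 against 358 to 1149 CPM at day 5 (-1.35 ± 0.14, adjusted p = 1.96e-10) and 1112 to 1768 against 384 to 844 CPM at day 14 (-1.04 ± 0.10, adjusted p = 3.65e-10), without overlap at either day. Eno1 differed by -1.54 ± 0.14 (adjusted p = 1.38e-11) and -1.11 ± 0.13 (adjusted p = 4.12e-09). P4ha1 and Pgam1 completed the day 5 list, at -1.14 ± 0.11 and -1.34 ± 0.14. Hif1a was lower in the Schwann fraction by -1.60 ± 0.17 (adjusted p = 5.54e-10) and -1.41 ± 0.15 (adjusted p = 1.1e-09), and Hk1 at day 14 by -1.06 ± 0.12 (adjusted p = 7.3e-09).

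A smaller group was higher in the Schwann fraction. Ddit4 measured 11.2 to 28.4 CPM in macrophages and 42.5 to 199 CPM in the Schwann fraction at day 5, then 0.793 to 17.5 and 20.7 to 53.1 CPM at day 14, without overlap at either day. The differences were 2.44 ± 0.15 (edgeR adjusted p = 1.62e-15) and 2.48 ± 0.27 (adjusted p = 2.05e-09). Adm measured 3.24 to 15.1 against 20.8 to 135 CPM at day 5, without overlap, and 0.905 to 11.2 against 4.09 to 59.9 CPM at day 14 (3.09 ± 0.24, adjusted p = 4.47e-13, and 2.57 ± 0.37, adjusted p = 3.7e-07). Pfkp was higher by 0.69 ± 0.08 (adjusted p = 8.98e-09) and 0.95 ± 0.14 (adjusted p = 6.43e-07), while the liver isoform Pfkl was lower at both days (-0.96 ± 0.15 and -0.51 ± 0.20). Mxi1, an antagonist of MYC, was higher by 0.91 ± 0.17 and 0.53 ± 0.18. P4ha2 was higher by 1.40 ± 0.33 (adjusted p = 0.000337) and 2.43 ± 0.41 (adjusted p = 4.87e-06), whereas its sister P4ha1 was lower. At day 14 P4ha2 and Adm were under the minimum level in macrophages alone, so they passed the filter through the Schwann fraction. Both are counted among the higher members of that day. Ndrg1 (0.46 ± 0.17, adjusted p = 0.0165) and Pfkfb3 (0.40 ± 0.16, adjusted p = 0.0241) were called at day 5. With the animal as a block, Ndrg1 was called at day 14 as well (0.19, adjusted p = 0.0461, against 0.159 without the block).

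Scaling bears on these splits. With library size alone the median of all genes rose by 0.25 at day 5 and 0.37 at day 14, and the day 14 split became 9 higher and 11 lower in place of 5 and 19. The Schwann fraction also held dendritic markers at 10755 to 35746 CPM, as given above. Its fibroblast markers had medians of 1687 and 525 CPM at day 5 after immediate and delayed repair, against 22.9 and 20.0 CPM in macrophages. At day 14 the medians were 5635 and 3896 CPM in the Schwann fraction, against 86.1 and 74.7 CPM in macrophages. The dump channel of the sort was set to remove cells positive for Thy1, and none of the fibroblast markers summed here is Thy1. The part of both marker lists in the levels of the Schwann fraction, P4ha2 included, was not tested.

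**Figure D5:**
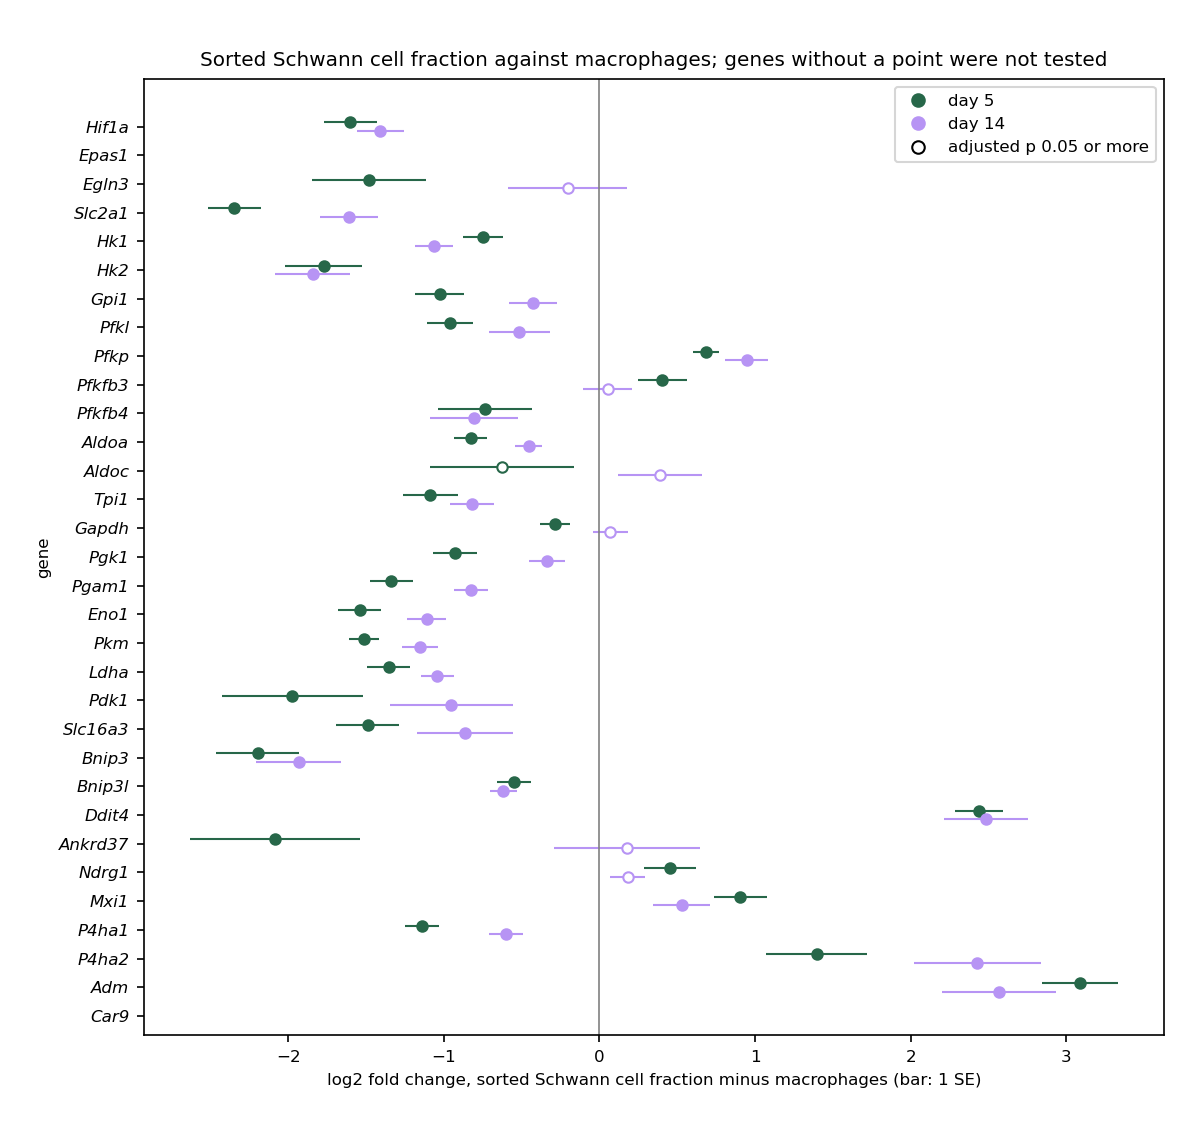
Log2 fold change of each gene, Schwann fraction minus macrophages, with a bar of 1 SE, at day 5 (green) and day 14 (purple), and open points where the edgeR adjusted p was 0.05 or more. Slc2a1 sits farthest left at day 5 (-2.35), and Adm (3.09) and Ddit4 (2.44) sit far to the right.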

How the data were processed

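Estimated counts per gene were deposited by the authors as 1 table for each kind of library. Sorted cells (1000 per library) gave amplified cDNA, and stump RNA was depleted of ribosomal RNA. Per the submitters' processing notes, reads were trimmed with cutadapt 1.8 and aligned with TopHat2 2.1.1 to mm10, with Cufflinks 2.2.1 and Cuffnorm also named. The program that wrote the counts and its handling of reads that map to several places are not given in the sources used here. Of the members only Eno1 held values that were not whole.

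Counts were rounded and fitted with edgeR 4.0.16 (quasi-likelihood test, TMM scaling) in R 4.3.3, keeping a gene that reached 5 CPM in 6 or more of the libraries compared, with Benjamini-Hochberg adjustment over all genes tested and a threshold of 0.05. For this minimum the CPM was the count over the library total, without the adjustment for composition used in the levels printed above. SE was the log2 fold change over the root of F. The repair comparisons at a day and the day comparisons within a repair group share libraries. Cell types were compared with repair as a term. In 31 animals both libraries came from 1 bridge, so the animal paired them, and the correlation of their deviations was 0.00398 to 0.288 at day 5 and 0.0569 to 0.248 at day 14. The stump was not compared by a test with sorted cells. Alternatives were DESeq2 1.42.0, limma-voom (limma 3.58.1), other scaling and filters, sex, a replicate block and leaving out libraries. Exon lengths came from GENCODE vM21. The test was checked on simulated counts. The members and lists were chosen with earlier results of these data known. Members past a repair test are named in full, with up to 6 rises and 6 falls of smallest p in each day or cell comparison, and Hif1a, Epas1, Slc2a1, Ldha, Car9 and Adm wherever tested. From each companion list up to 3 genes are named. Each bridge was 1 animal, so replicates are animals.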

Additional observations from a re-analysis of the deposited data

Results flagged for a closer look

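A set of 22 items, made of single genes and the sum of the 8 enzymes, was examined for a library far from the others of its group. Dixon's test was run in 220 groups, and 20 groups held one, where chance gives about 1 in 20. In the stump after delayed repair, replicate 9 was high for Adm (26.2 CPM) and Eno1 (166 CPM) and replicate 7 for Slc2a1 (174 CPM), and after immediate repair replicate 1 was high for Ddit4 (65.9 CPM). In macrophages at day 5, delayed replicate 4 was high for Ddit4 (21.2 CPM) and replicate 8 for Epas1 (7.77 CPM), while immediate replicate 8 was high for Egln3 (43.4 CPM) and replicate 7 low for Pgk1 (233 CPM). In macrophages at day 14 after immediate repair, replicate 1 was high for Ddit4 (17.5 CPM) and Pfkfb3 (733 CPM), replicate 3 for Pfkp (211 CPM), replicate 7 for Adm (11.2 CPM) and replicate 8 for Gapdh (669.7 CPM).

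In the Schwann fraction at day 5, delayed replicate 7 was high for Pfkfb4 (37.2 CPM) and immediate replicate 5 for Eno1 (830.2 CPM). At day 14, delayed replicate 1 was high for Pdk1 (40.0 CPM) and low for Epas1 (0.33 CPM), and replicate 6 was low for Gpi1 (86.6 CPM). Immediate replicate 1 was high for Ddit4 (53.1 CPM) and replicate 8 for Epas1 (12.5 CPM).

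The change from day 5 to day 14 differed between the Schwann fraction and macrophages by a test of the difference itself for Slc2a1 (0.72 on the log2 scale), Pgk1 (0.56), Pgam1 (0.50), Ankrd37 (2.23) and P4ha1 (0.52). These are 5 of 31 members, where 15.8% of all genes were called. Slc2a1 was not called with the animal as a block (edgeR adjusted p = 0.0785), and Pgk1 and Pgam1 were not called without the 2 libraries high in neutrophil markers.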

How the results depend on the processing

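In the stump the count of higher members was 2 under every alternative tried, and the count of lower members was 0 with the replicate number as a block (Pfkfb4 -0.32, edgeR adjusted p = 0.113, and Pfkp -0.25, adjusted p = 0.123) and 1 to 3 with 1 library left out. It was 1 without delayed replicate 2, 4, 5, 8 or 9 or immediate replicate 1, 2 or 7. Leaving out single libraries gave 12 to 17 lower members between the days in immediate macrophages, 14 to 18 in delayed macrophages, 2 to 3 in the immediate and 3 to 8 in the delayed Schwann fraction, and 0 in the sorted repair comparisons. The delayed Schwann fraction had 11 lower members with DESeq2 and 3 with library size scaling. At day 14 the cell types differed for 9 higher and 11 lower members with library size scaling. The difference between cell types in the change over time held for 9 members with DESeq2, 9 with library size scaling and 3 without the 2 libraries high in neutrophil markers. The cause was not tested in any of these.

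Direction changed only for values that were not called. Slc2a1 between repair groups in macrophages at day 14 was 0.0146 with the replicate block, 0.0112 with limma-voom and -0.0682 to 0.0548 with 1 library left out. Adm in the Schwann fraction at day 14 was 0.28 with limma-voom. With library size scaling, Slc2a1 and Ldha between days in the delayed Schwann fraction were 0.0623 and 0.0276, and the interaction of Ldha in macrophages was -0.0717. The interactions of Hif1a and Adm in the Schwann fraction were 0.00207 and 0.0027 with the replicate block, and that of Adm was 0.0309 without the 2 libraries high in neutrophil markers. With 1 library left out, the repair values ranged from -0.0437 to 0.0782 for Ldha in macrophages at day 5, from -0.26 to 0.0466 for Hif1a in macrophages at day 14, and from -0.23 to 0.0848 for Slc2a1 in the Schwann fraction at day 14. Slc2a1 between days in the delayed Schwann fraction ranged from -0.32 to 0.0133.

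Same-numbered animals of 2 groups share a number and, since numbers 1 to 4 are male and 5 to 9 female, a sex, which was tried as a covariate. They were not treated as pairs, because in no repair or day comparison was every pair's correlation over 0.1. It came nearest in the macrophage repair comparisons, with 7 of 8 pairs (median 0.26) at day 5 and 6 of 7 (median 0.255, 5 of 7 best with their own number) at day 14. Sorted libraries of the same animal did not meet this criterion either. Over 0.1 were 11 of 16 pairs at day 5 and 11 of 15 at day 14. The criterion therefore does not show that same-numbered animals are unrelated. Library size scaling moved the median of all genes by 0.16 in immediate macrophages between days, by 0.18 and 0.20 in the immediate and delayed Schwann fraction, and by 0.13 in the comparison of changes over time. Car9 had 3 counts or fewer in 11 of the 31 Schwann fraction libraries, which limits its values there.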

Other observations

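Car9 and Epas1 were under the minimum level in most comparisons, and Aldoc in 3, and these were fitted without a filter as well. Car9 was lower in the Schwann fraction than in macrophages at day 5 (-2.64 ± 0.68, edgeR adjusted p = 0.00149) and at day 14 (-2.20 ± 0.66, adjusted p = 0.00581), at 3.02 to 9.54 CPM in delayed and 2.55 to 6.57 CPM in immediate macrophages at day 5. Between repair groups in the Schwann fraction at day 5 its value was 3.13 ± 1.47 (adjusted p = 0.412), where 3 of 7 immediate and 2 of 9 delayed libraries had no count. Aldoc, a brain isoform of aldolase, was lower at day 14 in immediate macrophages in that fit (-1.29 ± 0.34, adjusted p = 0.0308), as it was in the delayed macrophages with the filter (-1.15 ± 0.25, adjusted p = 0.00712). Epas1 was not called in any comparison of sorted cells without the filter, with adjusted p-values of 0.375 or more.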
